A study of Homo sapiens with 8 samples.

Results

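The proteasome is the protease complex that removes ubiquitin-tagged proteins, and 41 genes of its subunits, dedicated assembly chaperones and activators were followed across all 8 arrays of this series. The members were taken by name, through the probe sets that the annotation of the array assigns to them, and not by a limit on any measured value. The list itself was chosen with earlier results of these data known. Of the 41, 36 had a probe set that names the gene alone, and all 36 gave a signal. PSMA6 and PSME2 were read only by probe sets that also carry the name of another gene, and these were kept out of all counts of array values. Array values of PSMC5, PSMD7 and PSMD13 were not analysed here. Counts of promoter motifs, which use no array value, take in every one of the 41 that has a promoter window. All other counts are of the 36 genes, among 8429 expressed genes in all.

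The cells were HT1080, a human fibrosarcoma cell line. They were cultured in medium with glucose and serum. Cells in this normal medium were left as control or received 10 µM compound C, 10 µM versipelostatin or 100 µM phenformin, and the remaining arrays held cells with 10 mM 2-deoxy-D-glucose (2DG), a glucose analogue that blocks glycolysis and evokes the unfolded protein response, either alone or together with the same dose of a compound. All treatments lasted 18 h, and a compound was given shortly ahead of 2DG. Compound C is a kinase inhibitor known for its action on AMPK, versipelostatin is a microbial product, and phenformin is a biguanide that acts on mitochondrial respiration. The study asked how compound C changes the transcriptional response to 2DG and how it compares with the other two compounds.

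The core of the proteasome is a barrel of alpha rings on the outside and beta rings on the inside, and the beta rings carry the active sites. A regulatory particle with a base of ATPases and a lid binds polyubiquitin chains, removes the ubiquitin and feeds the unfolded substrate into the barrel. Under interferon signalling the active-site subunits can be replaced by those of the immunoproteasome, which favours peptides for MHC class I molecules, and proteasome genes as a group are known targets of the transcription factor NFE2L1 when proteasome activity is short.

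The values were log2 signals, which the authors made by RMA, a method of background correction, normalization between arrays and summary of the probes. A difference is 1 log2 signal minus that of the reference, and a value of 1 is a 2-fold difference. A gene was taken as expressed where a probe set reached 6 on at least 1 array, and the probe set with the highest mean over the arrays stood for it. There was 1 array for each condition. No error, test or p-value is therefore attached to any difference of 1 array from 1 array, and the number of arrays limits the precision. Only the mean difference over the pairs with and without 2DG is tested, at the end. The mesenchymal markers VIM, FN1, CD44, MMP14 and COL6A1 were all expressed. EPCAM, CDH1, KRT19, PTPRC, CD3E, LYZ and CDH5 were under the median of the array, taken as background, on all 8 arrays, while the keratins KRT8 and KRT18 were expressed. PECAM1, an endothelial marker like CDH5, lay above this background on all 8 arrays, at 4.12 to 4.41, but did not reach 6. The spiked poly-A controls differed from the control array by 0.05 to 0.35 on the arrays without a compound in 2DG, and by 1.22, 0.85 and 0.67 in 2DG with compound C, versipelostatin and phenformin. Scaling on them would shift every difference from 2DG alone by −0.87, −0.50 and −0.32 in the same order, whereas centring each array on its median would shift these by 0.21, 0.23 and 0.28. For this reason the subunits are described first relative to the median of all expressed genes, which a constant shift leaves as it is.

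Most proteasome genes had a lower signal in 2DG than in control, where genes in general were spread evenly around 0, and when a compound was added to 2DG most of them lay above the median of all genes. The median difference of the 36 genes was −0.23 in 2DG against control, with 28 of 36 below 0, where the median of all expressed genes was 0.01 with 48.3% below 0. In 2DG with compound C the median difference from 2DG alone was 0.12 against −0.23 for all genes, and with versipelostatin it was 0.16 against −0.18. With phenformin it was −0.01 against −0.26. Relative to all genes, the subunits as deposited thus stood 0.35 higher with compound C, 0.35 under versipelostatin and 0.25 under phenformin. Quantile normalization, which is not a constant shift, narrowed these distances. It gave member medians of 0.06, 0.11 and −0.02 in the same order. The differences of all genes rose under it by a median of 0.14, 0.15 and 0.20. The sign of the medians themselves rests on the scale, since scaling on the poly-A controls turned those with compound C and versipelostatin to −0.75 and −0.33, and centring turned that with phenformin to 0.27. As RNA of a whole culture was read, fewer cells that express a gene and less RNA per cell cannot be told apart.

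Single subunits moved little. None of the 36 genes was 2-fold higher or lower in 2DG than in control, where 3.06% of all expressed genes were higher and 1.9% lower. With compound C in normal medium 1 gene, PSMB10, was 2-fold lower and none higher (all genes 2.7% and 3.88%). Versipelostatin alone left none past 2-fold (all genes 2.46% higher and 2.48% lower), and neither did phenformin alone (all genes 2.66% higher and 2.17% lower).

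When a compound was added to 2DG, a large share of the transcriptome was at least 2-fold below 2DG alone, and few of the subunits were. Of the members, 23 of 36 had a mean signal of 10 or more, against 892 of the 8429 genes. Genes of such signal varied less over the arrays (median SD 0.247, against 0.478 under 10). Shares and medians of genes of like signal were not taken, so a part of signal level in these counts was not tested. With compound C, 1 of 36, PSMD5, was 2-fold lower and 1, PSMD12, was 2-fold higher, where 25.4% of all genes were lower and 8.33% higher. With versipelostatin none of the 36 passed 2-fold either way, where 20% of all genes were lower and 4.09% higher. With phenformin 1 gene, PSMB8, was 2-fold lower and none higher, where 21.8% of all genes were lower and 4.84% higher. Scaled on the poly-A controls, the lower counts became 9, 2 and 3. PSMD12 was then no longer 2-fold higher with compound C (0.54) and was 2-fold lower with versipelostatin (−1.29). The shares of all genes under this scaling were not counted, so those given above are no reference for the counts of 9, 2 and 3.

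At 1.5-fold, 1 gene (PSMD1) was lower in 2DG than in control and none higher (all genes 7.3% and 10.8%). Compound C alone gave 4 lower, PSMB9, PSMB10, PSMD4 and PSMD11, and 1 higher, PSMD9 (all genes 9.38% and 12.7%). Versipelostatin alone gave 1 lower, PSMD1, and none higher (all genes 10.7% and 9.41%). Phenformin alone gave 3 lower, PSMD3, PSMD12 and PSME3, and none higher (all genes 10.9% and 9.22%). These shares lie near or under those of all genes.

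In 2DG at 1.5-fold, compound C gave 4 lower, PSMA5, PSMB5, PSMD5 and PSME4, and 5 higher, PSMB2, PSMC1, PSMC2, PSMD12 and PSMD14, where 37% of all genes were lower and 16.6% higher. Versipelostatin gave 2 lower, PSMB8 and PSMD12, and 1 higher, PSME3 (all genes 32.1% and 11.9%). Phenformin gave 4 lower, PSMB8, PSMB9, PSMD5 and PSMD10, and 1 higher, PSME3 (all genes 35.4% and 11.5%). The members lower in 2DG with a compound were thus a smaller share of the 36 than of all genes under each compound, while those higher were near or under the share of all genes. Shares of genes of like signal were not counted here either.

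**Figure D1:**
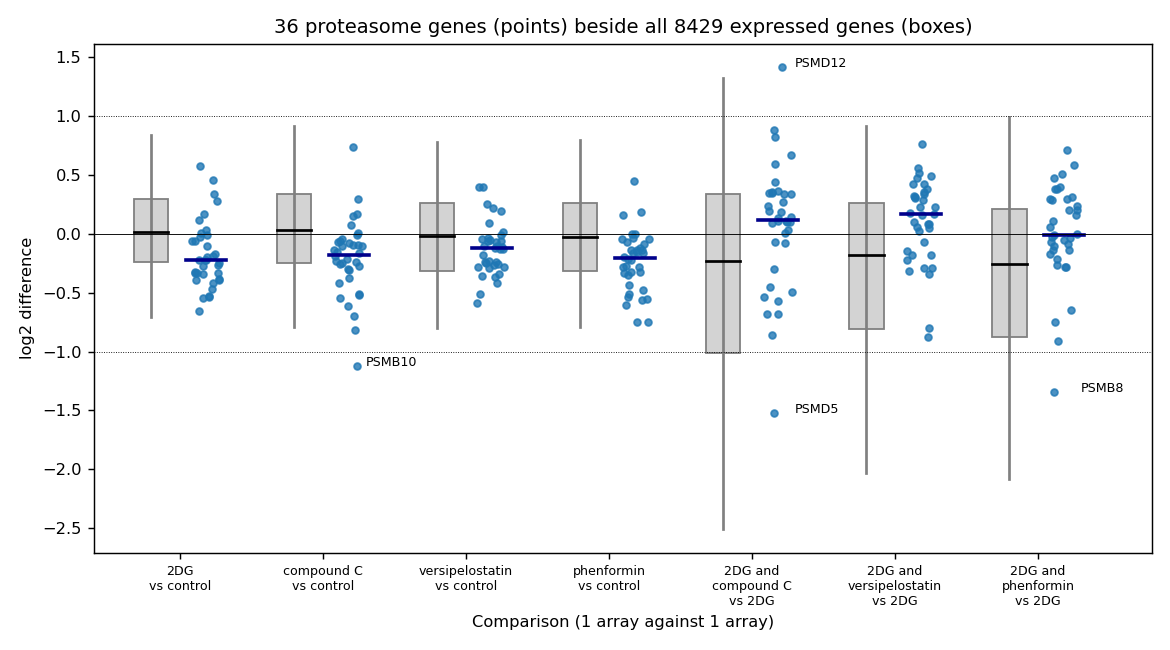
Log2 difference of each of the 36 proteasome genes (blue points, blue bar for their median) beside all 8429 expressed genes (grey box for the quartiles, black bar for the median, grey line from the 5th to the 95th percentile) in 7 comparisons of 1 array with 1 array; dotted lines mark 2-fold. In the 3 comparisons within 2DG the grey boxes reach down to about −1 while most blue points stay near 0, and only PSMB10, PSMD12, PSMD5 and PSMB8 pass 2-fold in any comparison; scaling on the poly-A controls would lower the points and boxes of the last 3 comparisons by 0.87, 0.50 and 0.32.

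In normal medium the subunits also lay below control under each compound: 30 of 36 with compound C (median −0.18, all genes 0.04), 29 with versipelostatin (−0.12, all genes −0.02) and 32 with phenformin (−0.21, all genes −0.03). These 3 comparisons and that of 2DG share the control array, as the 3 within 2DG share the array of 2DG alone, so that they are not separate observations. The control array held the highest value of the 8 for 10 of the 36 genes (27.8%, against 10.7% of all genes) and the lowest for none of them (0%, against 6.71%). The array of 2DG with compound C was the highest for another 10 (27.8%, against 18.8% of all genes) and the lowest for 6 (16.7%, against 31.2%). That of 2DG with versipelostatin was the highest for 9 (25%, against 9.55% of all genes).

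**Figure D2:**
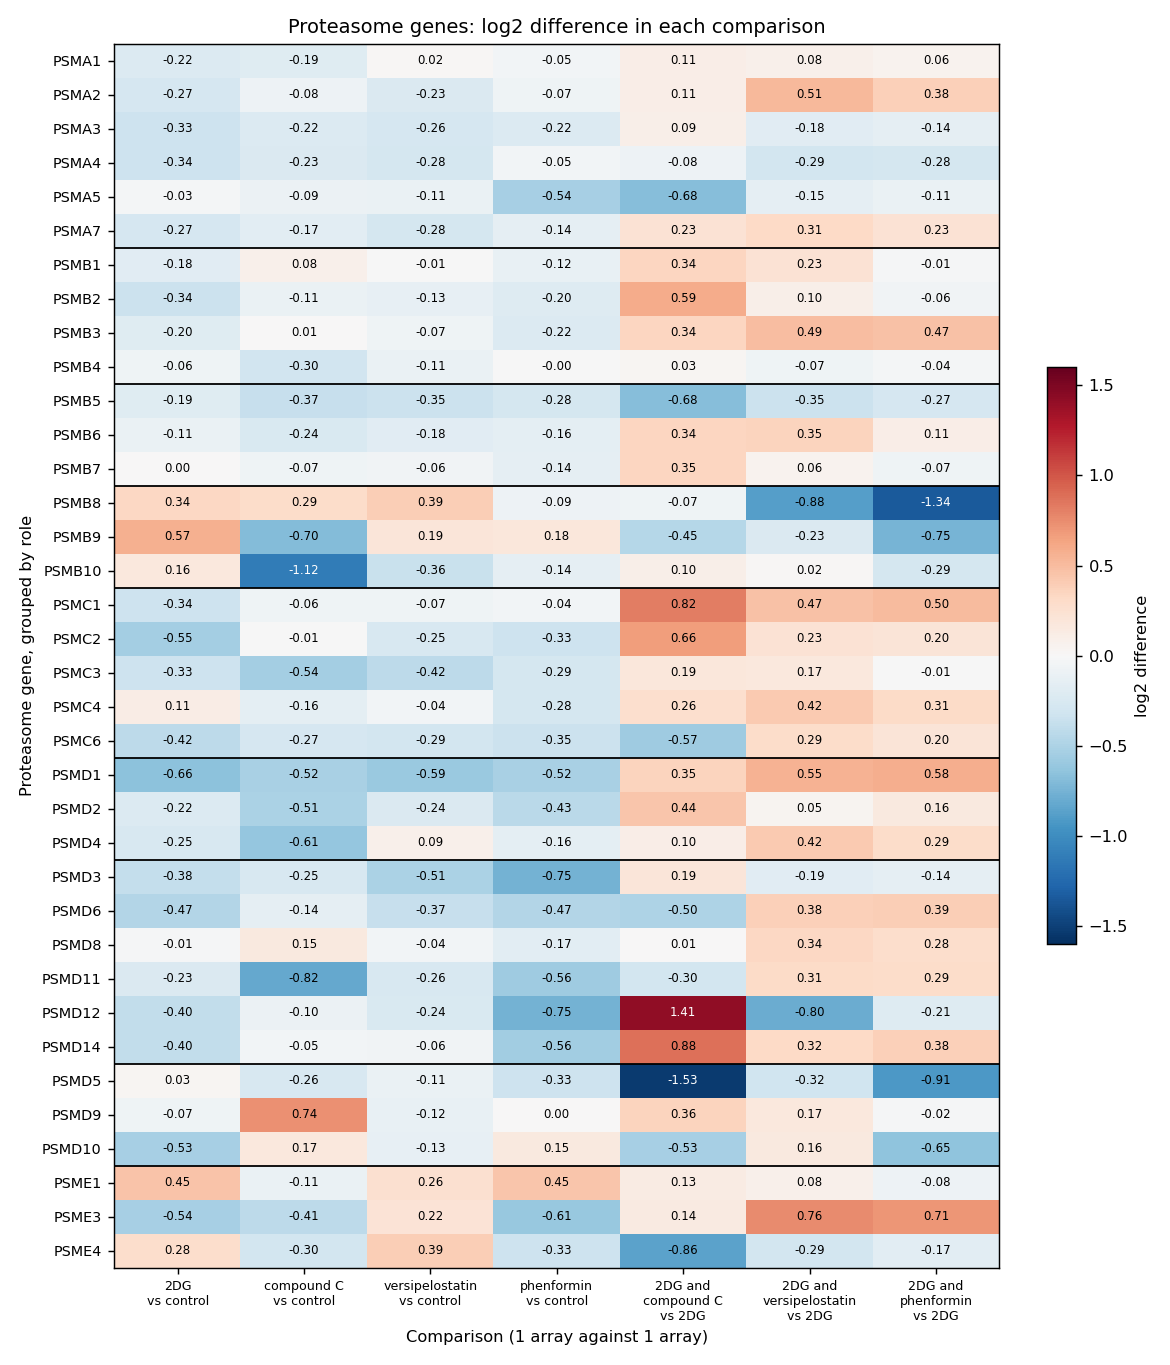
Log2 difference of each of the 36 proteasome genes (rows, grouped by role with black lines between the groups) in the 7 comparisons (columns, 1 array against 1 array); red is higher and blue lower, with the value printed in each cell. The first 4 columns, against control, are mostly pale blue, and PSMB8, PSMB9 and PSMB10 form the only group with all its genes above control in 2DG, which scaling on the poly-A controls would leave true of PSMB9 alone; that scaling would shift the last 3 columns by −0.87, −0.50 and −0.32.

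The alpha ring forms the outer gate of the barrel. All 6 alpha subunits measured were below control in 2DG, within a narrow range from −0.34 to −0.03 and with a median of −0.27. In 2DG with compound C, versipelostatin and phenformin their median differences from 2DG alone were 0.10, −0.03 and −0.02, where those of all genes were −0.23, −0.18 and −0.26. PSMA5 was the alpha subunit apart from the rest, with −0.68 in 2DG with compound C and −0.54 with phenformin alone. PSMA1 varied least of all 36 genes over the 8 arrays, between 10.94 and 11.18 on the log2 signal scale.

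PSMA2 had the largest positive difference of the alpha subunits from 2DG alone when versipelostatin was added, behind PSME3 and PSMD1 among all 36 genes. Its log2 signal was 11.49 in control, 11.41 with compound C, 11.26 under versipelostatin and 11.42 under phenformin, and then 11.22 in 2DG alone, 11.33 in 2DG plus compound C, 11.74 in 2DG plus versipelostatin and 11.60 in 2DG plus phenformin. The arrays of 2DG with versipelostatin and with phenformin were its highest, and that of 2DG alone was its lowest. Their differences from 2DG alone were 0.51 and 0.38, both of which would be close to 0 after scaling on the poly-A controls. A dimmer probe set of PSMA2 gave −1.15 in 2DG against control where the brighter gave −0.27. Of the probe sets that carry the names of both PSMA6 and PRORP, the one with the higher signal gave 12.14 in control and 12.00 in 2DG.

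Of the beta subunits without an active site, PSMB1, PSMB2, PSMB3 and PSMB4, all 4 were below control in 2DG (−0.34 to −0.06) and all 4 above 2DG alone when compound C was added (0.03 to 0.59, below 0 for all 4 if scaled on the poly-A controls). PSMB2 had the largest difference of them with compound C, at 0.59, and 0.71 on its other probe set. PSMB3 gave 0.34, 0.49 and 0.47 with the 3 compounds in 2DG, and PSMB4 stayed within −0.07 and 0.03, although the dimmest of its 3 probe sets gave 0.62 with compound C.

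The constitutive active sites are those of PSMB6 (caspase-like), PSMB7 (trypsin-like) and PSMB5 (chymotrypsin-like, the main target of bortezomib). PSMB5 gave log2 signals of 11.28 in control, 10.90 with compound C, 10.93 under versipelostatin and 11.00 under phenformin, and then 11.09 in 2DG alone, 10.41 in 2DG plus compound C, 10.74 in 2DG plus versipelostatin and 10.82 in 2DG plus phenformin. Control was its highest array and 2DG with compound C its lowest, and in each medium all 3 compounds lay below the array without one. The difference from 2DG alone was −0.68 with compound C, −0.35 under versipelostatin and −0.27 under phenformin, and that from control was −0.37, −0.35 and −0.28.

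PSMB6 and PSMB7 showed another order. PSMB6 gave log2 signals of 10.74, 10.50, 10.55 and 10.57 in normal medium (control, compound C, versipelostatin and phenformin) and 10.63, 10.97, 10.98 and 10.73 in 2DG medium (2DG alone and with the compounds in the same order). It was highest in 2DG with compound C and with versipelostatin, with differences from 2DG alone of 0.34 and 0.35. PSMB7 gave log2 signals of 11.52, 11.45, 11.46 and 11.38 in normal medium (control, compound C, versipelostatin and phenformin) and 11.52, 11.87, 11.58 and 11.45 in 2DG medium (2DG alone and with the compounds in the same order). It was the same in 2DG as in control to 2 decimals, and highest in 2DG with compound C, by 0.35 over 2DG alone. PSMB5 thus differed from both other active-site subunits by about 1 on the log2 scale in that comparison, −0.68 against 0.34 and 0.35, a gap that a constant shift between arrays leaves as it is. Each of the 3 was read by a single probe set. Scaled on the poly-A controls, PSMB6 and PSMB7 would lie below 2DG alone with compound C, at −0.53 and −0.52. PSMB6 with versipelostatin would then lie at −0.14.

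The immunoproteasome subunits PSMB8, PSMB9 and PSMB10 replace PSMB5, PSMB6 and PSMB7 in newly made barrels, and PSME1 and PSME2 form the PA28 activator that often accompanies them. These genes are known targets of interferon through short promoter elements, so their promoters are shown here with the response element searched. In the RefSeq promoter table (GRCh38.p14), windows from 250 bases before to 50 after the start of transcription were found for 36 of the 41 genes, PSMA6, PSMC5, PSMD7 and PSME2 among them, so that they are not the same 36 genes as those with array values. The core of the interferon-stimulated response element, GAAANNGAAA on either strand, was present in 6 of these 36 (16.7%), against 4.38% of the 27305 genes in the table. The 6 were PSMA4, PSMB4, PSMB8, PSMB10, PSME1 and PSME2. The stretches of the 4 that belong to the immunoproteasome and PA28 follow, in the direction of the gene and 5′ to 3′, with the core in capitals.
PSMB8: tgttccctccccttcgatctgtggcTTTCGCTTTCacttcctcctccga
PSMB10: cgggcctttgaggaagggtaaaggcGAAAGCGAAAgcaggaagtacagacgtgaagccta
PSME1: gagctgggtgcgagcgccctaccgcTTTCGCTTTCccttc
PSME2: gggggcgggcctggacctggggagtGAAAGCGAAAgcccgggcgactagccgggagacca

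They lie at chr6:32844028-32844076 (minus strand) for PSMB8, chr16:67936837-67936896 (minus strand) for PSMB10, chr14:24136174-24136213 (plus strand) for PSME1 and chr14:24146604-24146663 (minus strand) for PSME2. The 4 cores are the same word, GAAAGCGAAA, read on the strand of the gene in PSMB10 and PSME2 and on the opposite strand, as TTTCGCTTTC, in PSMB8 and PSME1. They begin at −4, −21, 6 and −28 relative to the start in PSMB8, PSMB10, PSME1 and PSME2. This word was held by 34 of the 27305 genes (0.125%), a count made after the 4 had been seen. In PSMA4 and PSMB4 the middle bases were others, and the cores lay farther from the start, at −240 and −68:
PSMA4: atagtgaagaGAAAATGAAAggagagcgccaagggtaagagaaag
PSMB4: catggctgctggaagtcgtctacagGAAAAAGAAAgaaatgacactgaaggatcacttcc

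These lie at chr15:78540155-78540199 (plus strand) and chr1:151399480-151399539 (plus strand). PSMB9 had no match in its window, which says only that these letters are not there. The core of the gamma-activated site, TTCNNNGAA, was found for 7 of the 36 (19.4%; all genes 9.38%), PSMB8 among them. A match is a description of the letters and was not tested for binding.

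In 2DG the 3 immunoproteasome subunits were above control, by 0.57 for PSMB9, 0.34 for PSMB8 and 0.16 for PSMB10, whereas 28 of the 36 genes were below it. PSME1 was above control by 0.45, and the probe set that names PSME2 together with MIR7703 by 0.23. Scaled on the poly-A controls, which lowers each value by 0.35, PSMB8, PSMB10 and the probe set of PSME2 would lie below control, and PSMB9 and PSME1 would stay above it. The other genes above control in 2DG were PSMC4 (0.11), PSMD5 (0.03), PSMB7 (0.00) and PSME4 (0.28). As deposited, the genes with the shared word lay above control in 2DG, PSME2 by the probe set it shares. With that scaling this would hold for PSME1 alone. Genes with no match to the core lay above control too, PSMB9 furthest of the 36. PSMA4 and PSMB4, with the other cores, gave −0.34 and −0.06. Whether the word bears on these values was not tested.

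The compounds separated the 3 subunits. PSMB8, the chymotrypsin-like subunit of the immunoproteasome, gave log2 signals of 7.68 in control, 7.97 with compound C, 8.07 under versipelostatin and 7.59 under phenformin, and then 8.01 in 2DG alone, 7.95 in 2DG plus compound C, 7.14 in 2DG plus versipelostatin and 6.67 in 2DG plus phenformin. It was lowest on the arrays of 2DG with phenformin and with versipelostatin and highest with versipelostatin alone, so that versipelostatin lay above the reference in normal medium and below it in 2DG. Against 2DG alone the difference was −1.34 with phenformin, −0.88 with versipelostatin and −0.07 with compound C.

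PSMB9, the replacement of PSMB6, gave log2 signals of 6.47 in control, 5.77 with compound C, 6.66 under versipelostatin and 6.65 under phenformin, and then 7.05 in 2DG alone, 6.59 in 2DG plus compound C, 6.82 in 2DG plus versipelostatin and 6.30 in 2DG plus phenformin. It was highest in 2DG alone and lowest with compound C alone, and each compound lay below 2DG alone, with differences of −0.45, −0.23 and −0.75 for compound C, versipelostatin and phenformin. PSMB10, the replacement of PSMB7, gave log2 signals of 7.86, 6.74, 7.50 and 7.72 in normal medium (control, compound C, versipelostatin and phenformin) and 8.03, 8.12, 8.05 and 7.74 in 2DG medium (2DG alone and with the compounds in the same order). Compound C in normal medium stood apart from its other 7 arrays, with a difference of −1.12 from control, the largest of any member in normal medium. In 2DG the same compound left PSMB10 at 0.10 from 2DG alone. Compared with compound C alone, 2DG with compound C was higher by 1.38 for PSMB10 and 0.82 for PSMB9, and differed by −0.02 for PSMB8. Scaled on the poly-A controls, these values would be 0.26, −0.30 and −1.14.

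Genes of MHC class I peptide processing, the pathway that uses these peptides, were set beside them. Of 14 listed, 11 were measured, and all 11 were above control in 2DG, with a median difference of 0.51 and none past 2-fold. Of all genes 51.6% were above control in 2DG, with a median of 0.01, and at 2-fold 3.06% were higher and 1.9% lower. Scaled on the poly-A controls, the median of the 11 would be 0.35 lower. In 2DG with compound C, versipelostatin and phenformin the medians from 2DG alone were −0.46, −0.36 and −0.57, where all genes gave −0.23, −0.18 and −0.26. With each compound 2 of the 11 genes were 2-fold lower and none higher, a share near or under that of all genes (25.4%, 20% and 21.8% lower). TAP1, a subunit of the peptide transporter into the ER, whose gene lies beside PSMB9, gave log2 signals of 5.99, 6.71, 6.80 and 6.62 in normal medium (control, compound C, versipelostatin and phenformin) and 6.98, 5.69, 5.64 and 5.33 in 2DG medium (2DG alone and with the compounds in the same order). It was highest in 2DG alone and lower on each array of 2DG with a compound, with differences of −1.29, −1.35 and −1.66. IRF1, a transcription factor of the interferon response, differed by 0.51 in 2DG and by −1.71, −1.00 and −0.85 with the compounds, and ERAP2, a peptidase that trims peptides in the ER, by 0.77 and then −0.73, −0.63 and −1.39.

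**Figure D3:**
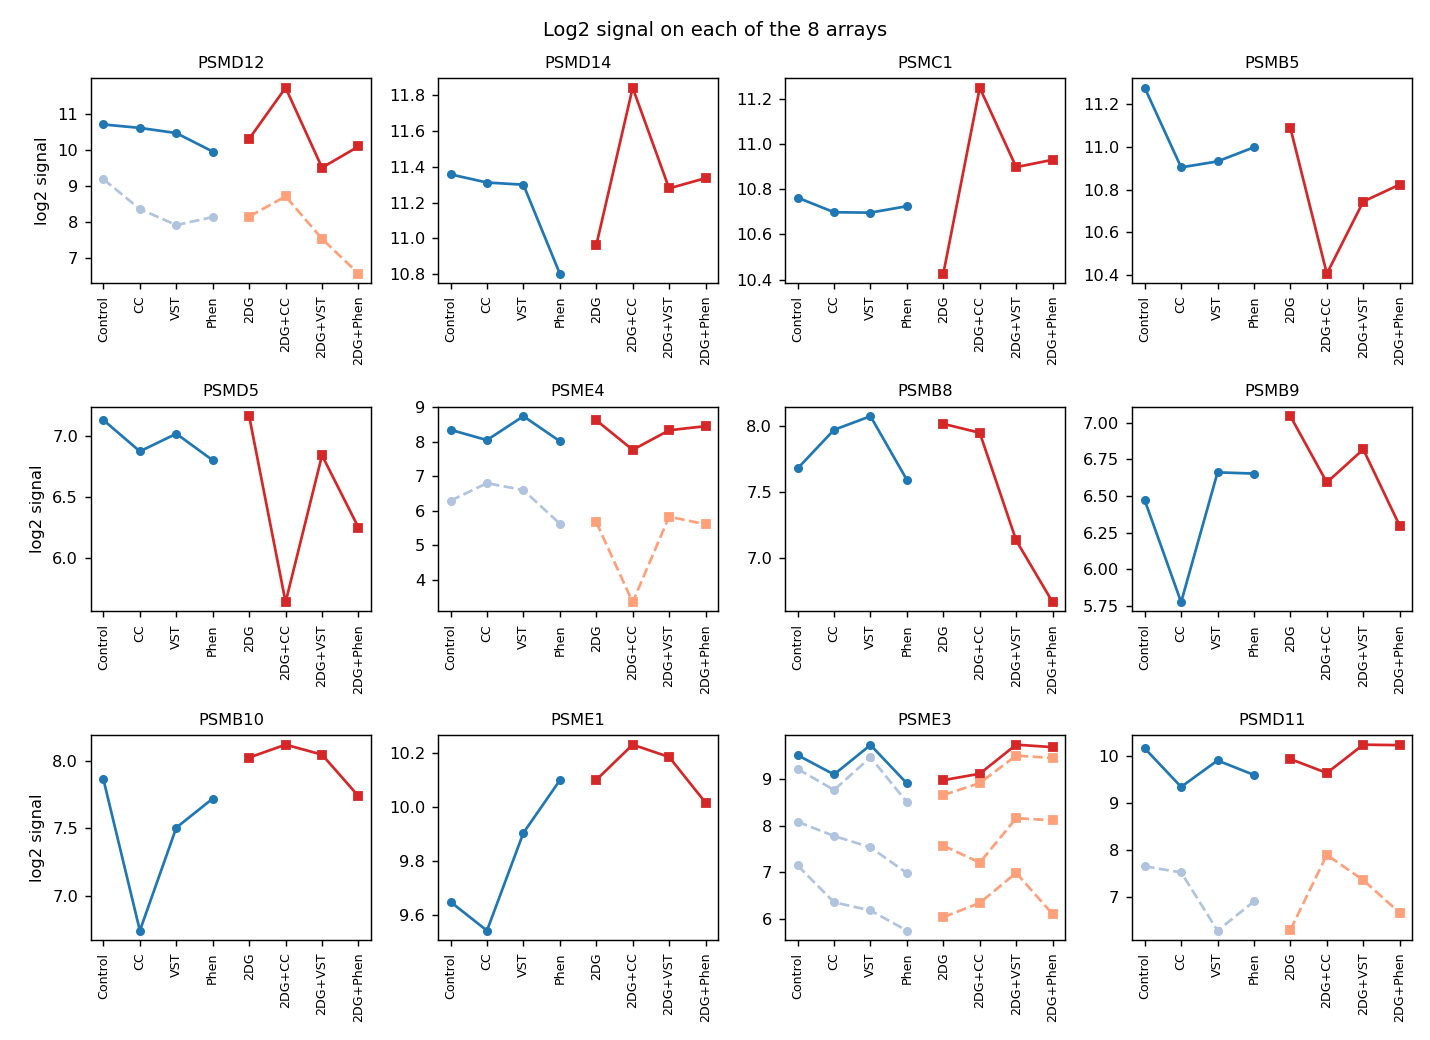
Log2 signal of 12 proteasome genes on each of the 8 arrays (circles in normal medium, squares in 2DG; solid line for the probe set that stands for the gene, pale dashed lines for its other expressed probe sets), each panel with its own scale. On the solid lines PSMD12, PSMD14 and PSMC1 peak in 2DG with compound C, where PSMB5, PSMD5 and PSME4 are lowest. The dashed line of PSMD12 peaks in control instead. PSMB10 is lowest with compound C alone and PSMB8 in 2DG with phenformin.

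The ATPases of the base unfold the substrate. Of 5 measured, 4 were below control in 2DG (median −0.34), PSMC4 being the exception. All 5 were above 2DG alone with versipelostatin, 4 with compound C and 4 with phenformin, with medians of 0.29, 0.26 and 0.20, which would be below 0 if scaled on the poly-A controls. All genes gave −0.18, −0.23 and −0.26. PSMC6 was the one below 2DG alone with compound C, at −0.57.

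PSMC1 gave log2 signals of 10.76 in control, 10.70 with compound C, 10.70 under versipelostatin and 10.73 under phenformin, and then 10.43 in 2DG alone, 11.25 in 2DG plus compound C, 10.90 in 2DG plus versipelostatin and 10.93 in 2DG plus phenformin. It lay between 10.70 and 10.76 on the 4 arrays in normal medium, was lowest in 2DG alone and highest in 2DG with compound C. Its differences from 2DG alone were 0.82, 0.47 and 0.50 with compound C, versipelostatin and phenformin, the first 2 of which scaling on the poly-A controls would turn negative. PSMC2 gave log2 signals of 11.07, 11.06, 10.82 and 10.74 in normal medium (control, compound C, versipelostatin and phenformin) and 10.53, 11.19, 10.75 and 10.73 in 2DG medium (2DG alone and with the compounds in the same order). It was also lowest in 2DG alone and highest in 2DG with compound C, and in 2DG it differed from control by −0.55, or by −2.01 on a dimmer probe set. That dimmer probe set was highest in control, at 7.15 against 6.57 in 2DG with compound C. PSMC3 gave log2 signals of 10.14, 9.60, 9.73 and 9.86 in normal medium (control, compound C, versipelostatin and phenformin) and 9.81, 10.00, 9.99 and 9.81 in 2DG medium (2DG alone and with the compounds in the same order). Control was its highest array and compound C alone its lowest, with a difference of −0.54.

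PSMD1 and PSMD2 are the large scaffolds of the base, and PSMD4 is a ubiquitin receptor. All 3 were below control in 2DG (−0.66 to −0.22) and with compound C alone (−0.61 to −0.51), and above 2DG alone with each compound. Scaled on the poly-A controls, of these last 9 values only those of PSMD1 with versipelostatin and with phenformin would stay above 0. PSMD1 had the largest negative difference of the 36 genes in 2DG against control. Its log2 signals were 10.12 in control, 9.59 with compound C, 9.53 under versipelostatin and 9.60 under phenformin, and then 9.46 in 2DG alone, 9.81 in 2DG plus compound C, 10.02 in 2DG plus versipelostatin and 10.04 in 2DG plus phenformin. Control and the arrays of 2DG with versipelostatin and with phenformin lay near 10, and the other 5 arrays were between 9.46 and 9.81. The differences from control were −0.66 in 2DG, −0.52 with compound C, −0.59 under versipelostatin and −0.52 under phenformin, close to each other, and its second probe set gave −0.71 in 2DG.

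The lid holds PSMD14, the deubiquitinase that cuts ubiquitin from the substrate, and structural subunits such as PSMD12, PSMD11 and PSMD3. All 6 lid genes measured were below control in 2DG (median −0.39), with versipelostatin alone (−0.25) and with phenformin alone (−0.56). PSMD12 gave log2 signals of 10.70 in control, 10.61 with compound C, 10.46 under versipelostatin and 9.95 under phenformin, and then 10.31 in 2DG alone, 11.72 in 2DG plus compound C, 9.51 in 2DG plus versipelostatin and 10.09 in 2DG plus phenformin. It was highest in 2DG with compound C and lowest in 2DG with versipelostatin, 2.21 apart, the widest range over the arrays of any member. Against 2DG alone the differences were 1.41 with compound C, −0.80 under versipelostatin and −0.21 under phenformin. Its other probe set gave 0.56, −0.62 and −1.58, the same signs with other sizes. That probe set was highest in control (9.19, against 8.71 in 2DG with compound C) and lowest in 2DG with phenformin (6.57). Scaling on the poly-A controls would bring the first difference to 0.54 on the brighter probe set and below 0 on the dimmer.

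PSMD14 followed compound C in the same direction. Its log2 signals were 11.36 in control, 11.31 with compound C, 11.30 under versipelostatin and 10.80 under phenformin, and then 10.96 in 2DG alone, 11.84 in 2DG plus compound C, 11.28 in 2DG plus versipelostatin and 11.34 in 2DG plus phenformin. It was highest in 2DG with compound C, 0.88 above 2DG alone (close to 0 if scaled on the poly-A controls), and lowest with phenformin alone, −0.56 from control. PSMD3 gave log2 signals of 8.47, 8.22, 7.96 and 7.72 in normal medium (control, compound C, versipelostatin and phenformin) and 8.09, 8.29, 7.91 and 7.95 in 2DG medium (2DG alone and with the compounds in the same order), with control as its highest and phenformin alone as its lowest array (−0.75). PSMD11 gave log2 signals of 10.16, 9.34, 9.90 and 9.59 in normal medium (control, compound C, versipelostatin and phenformin) and 9.93, 9.63, 10.23 and 10.22 in 2DG medium (2DG alone and with the compounds in the same order), lowest with compound C alone at −0.82 from control. A dimmer probe set of PSMD11 gave −0.13 there, and in 2DG with compound C it gave 1.59 where the brighter gave −0.30, so that the direction of PSMD11 in 2DG with compound C is not settled.

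NFE2L1 and its relative NFE2L2 bind the antioxidant response element, and the promoters of the members with the largest positive and negative difference in 2DG with compound C, PSMD12 and PSMD5, both hold its core, TGACNNNGC. The core, in capitals, and its surroundings are, in the direction of the gene:
PSMD12: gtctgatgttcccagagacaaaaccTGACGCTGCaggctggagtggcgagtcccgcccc
PSMD5: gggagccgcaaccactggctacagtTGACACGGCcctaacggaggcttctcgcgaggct

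They lie at chr17:67366709-67366767 (minus strand) and chr9:120843023-120843081 (minus strand) on GRCh38.p14 and begin at −165 and −134 from the start. The core was found for 13 of the 36 members with a window (36.1%), against 16.1% of all genes, and the CCAAT box for 18 (50%; all genes 39.7%). The palindrome of the nuclear respiratory factor 1, GCGCNTGCGC, was found for 5 (13.9%; all genes 6.98%). A gene with the core could lie at either end, as PSMD12 (1.41) and PSMD5 (−1.53) did.

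PSMD5, PSMD9 and PSMD10 are chaperones that assemble the base and are absent from the finished particle. PSMD5 gave log2 signals of 7.13 in control, 6.87 with compound C, 7.02 under versipelostatin and 6.80 under phenformin, and then 7.16 in 2DG alone, 5.64 in 2DG plus compound C, 6.84 in 2DG plus versipelostatin and 6.25 in 2DG plus phenformin. The array of 2DG with compound C stood below its other 7, followed by 2DG with phenformin, with differences from 2DG alone of −1.53 and −0.91. PSMD10, known also as gankyrin, gave log2 signals of 9.54, 9.71, 9.41 and 9.70 in normal medium (control, compound C, versipelostatin and phenformin) and 9.01, 8.47, 9.17 and 8.36 in 2DG medium (2DG alone and with the compounds in the same order). It was lowest in 2DG with phenformin and with compound C, and the 4 arrays in normal medium lay above the 4 in 2DG, as they did on its other probe set. Its difference in 2DG was −0.53 without a compound, −1.24 under compound C, −0.25 under versipelostatin and −1.33 under phenformin. PSMD9 gave log2 signals of 9.45, 10.18, 9.33 and 9.45 in normal medium (control, compound C, versipelostatin and phenformin) and 9.38, 9.74, 9.55 and 9.35 in 2DG medium (2DG alone and with the compounds in the same order), and was highest with compound C alone, 0.74 above control, the largest positive difference of the 36 genes in normal medium.

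The activators bind the ends of the barrel in place of the regulatory particle. PSME1 gave log2 signals of 9.65 in control, 9.54 with compound C, 9.90 under versipelostatin and 10.10 under phenformin, and then 10.10 in 2DG alone, 10.23 in 2DG plus compound C, 10.18 in 2DG plus versipelostatin and 10.02 in 2DG plus phenformin. Control and compound C alone were its lowest arrays, and all 4 arrays in 2DG lay above control. Phenformin alone (0.45) and 2DG alone (0.45) were the same distance above control. The probe set shared by PSME2 and MIR7703 gave log2 signals of 9.60, 9.26, 9.71 and 9.55 in normal medium (control, compound C, versipelostatin and phenformin) and 9.82, 10.02, 9.92 and 9.53 in 2DG medium (2DG alone and with the compounds in the same order), again lowest with compound C alone.

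PSME3 encodes the nuclear activator PA28 gamma. Its log2 signals were 9.51 in control, 9.10 with compound C, 9.73 under versipelostatin and 8.90 under phenformin, and then 8.97 in 2DG alone, 9.11 in 2DG plus compound C, 9.73 in 2DG plus versipelostatin and 9.68 in 2DG plus phenformin. On the probe set that stands for it, phenformin and 2DG alone were its lowest arrays, and the arrays of 2DG with versipelostatin and with phenformin were as high as versipelostatin alone. Phenformin thus lay −0.61 from control in normal medium and 0.71 from 2DG alone in 2DG, a change of side seen on the 3 other probe sets of PSME3 as well, where the pairs of values were −0.71 and 0.79, −1.10 and 0.54, and −1.40 and 0.06. On the last of these, scaling on the poly-A controls puts the second value below 0. With versipelostatin alone the probe sets parted, with 0.22 and 0.25 from control on the brighter and −0.55 and −0.96 on the dimmer. On the dimmer, 2DG with versipelostatin lay 0.62 and 0.81 above versipelostatin alone.

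PSME4 encodes PA200, an activator found in the nucleus and known for its part in the degradation of acetylated histones. It gave log2 signals of 8.35, 8.05, 8.75 and 8.02 in normal medium (control, compound C, versipelostatin and phenformin) and 8.63, 7.77, 8.34 and 8.46 in 2DG medium (2DG alone and with the compounds in the same order). Versipelostatin alone and 2DG alone were its highest arrays, and 2DG with compound C its lowest, −0.86 from 2DG alone. The other probe set gave −2.32 in that comparison, the same side with a larger size. In 2DG against control the probe sets parted, with 0.28 on the brighter and −0.62 on the dimmer.

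Repeated reading of a transcript was available only between probe sets of the same gene, which share the RNA and the array. There were 15 members with at least 2 expressed probe sets. The median SD between probe sets of a gene was 0.0850 in 2DG against control, and 0.307, 0.154 and 0.0988 in 2DG with compound C, versipelostatin and phenformin. The pooled SD, which weighs the few wide gaps, was 0.433 in 2DG and 0.534, 0.560 and 0.437 with the compounds. The probe sets of a gene lay on both sides of 0 for 2 of the 15 genes in 2DG and for 4, 3 and 3 with the compounds. Many differences of single subunits given here are thus within the gap between probe sets of a gene, while PSMB1, PSMD1, PSMD10 and PSMA1 gave nearly the same value on each of theirs in the comparisons plotted.

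**Figure D4:**
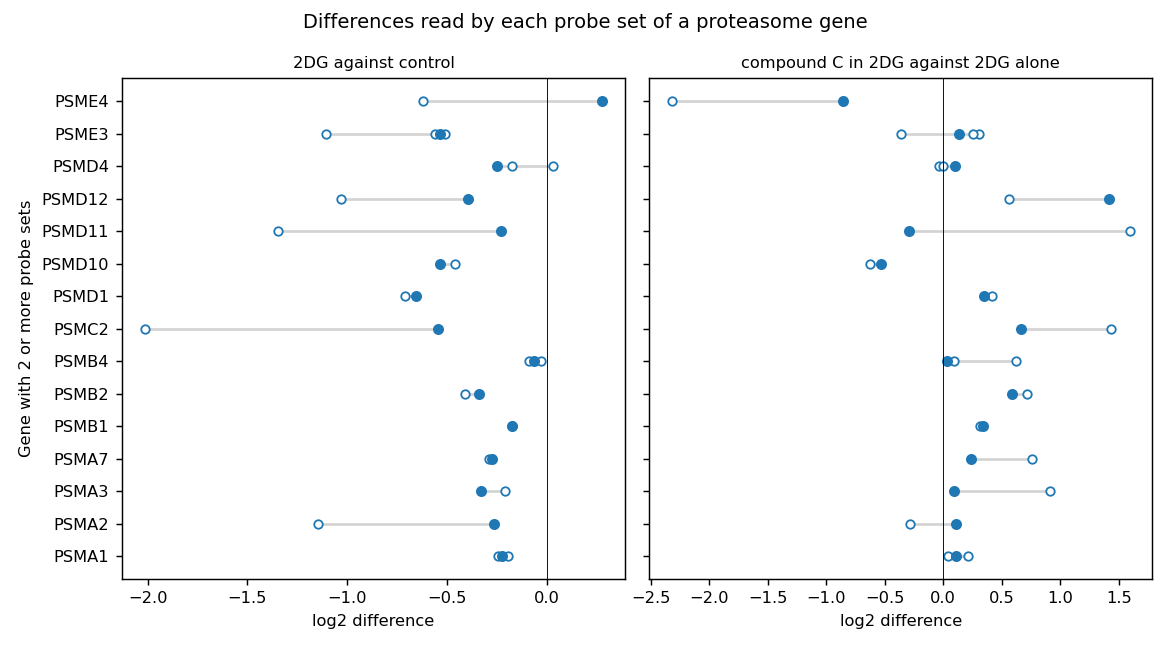
Log2 difference read by each expressed probe set (filled circle for the one that stands for the gene, open circles for the others, grey line from the lowest to the highest) of the 15 proteasome genes with at least 2, in 2DG against control and in 2DG with compound C against 2DG alone. PSMC2 in 2DG spans −2.01 to −0.55, and PSMD11 in 2DG with compound C spans −0.30 to 1.59.

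Over the 8 arrays the members varied less than most genes. The SD of a gene's log2 signal had a median of 0.249 over the 36 members, from 0.0892 for PSMA1 to 0.652 for PSMD12, and of 0.450 over all expressed genes. Part of this goes with signal: among genes with a mean of 10 or more the medians were 0.224 for 23 members and 0.247 for 892 genes, and among those under 10 they were 0.330 for 13 members and 0.478 for 7537 genes. Among the genes of high signal the members were hence near the rest. The immunoproteasome subunits, PSMD5 and PSMD10 were among the members of lower signal and wider spread.

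Genes that act with the proteasome were counted in the same way. Past 2-fold in 2DG with compound C, versipelostatin and phenformin, all genes gave 25.4%, 20% and 21.8% lower and 8.33%, 4.09% and 4.84% higher. In 2DG against control they gave 1.9% lower and 3.06% higher. Of 5 assembly factors of the barrel, PSMG1 to PSMG4 and POMP, all measured, none passed 2-fold in 2DG (median −0.12), and 1, PSMG4, did with compound C, at −2.05 from 2DG alone. PSMG4 gave log2 signals of 9.01, 8.89, 9.04 and 9.00 in normal medium (control, compound C, versipelostatin and phenformin) and 9.24, 7.19, 9.18 and 8.57 in 2DG medium (2DG alone and with the compounds in the same order), so that the array of 2DG with compound C stood below the other 7. PSMG2, a partner of PSMG1, gave −0.98 there. The median of the 5 was −0.42 with compound C, −0.01 under versipelostatin and 0.02 under phenformin.

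Of 12 partners of the finished particle, all measured, none passed 2-fold in 2DG, 3 were 2-fold higher and 2 lower in 2DG with compound C, and 1 was higher and 2 lower with versipelostatin and again with phenformin. ADRM1, the ubiquitin receptor also called Rpn13, gave log2 signals of 9.56, 9.92, 9.29 and 8.94 in normal medium (control, compound C, versipelostatin and phenformin) and 9.34, 10.99, 10.02 and 10.18 in 2DG medium (2DG alone and with the compounds in the same order). It was highest on the 3 arrays of 2DG with a compound, by 1.64, 0.67 and 0.84 over 2DG alone. AKIRIN2, which brings proteasomes into the nucleus, was higher by 1.74 with compound C and differed by −1.09 with versipelostatin and −0.82 with phenformin, the order that PSMD12 had on its brighter probe set but not on its dimmer. ZFAND2A, a stress-induced proteasome binder, was higher by 2.16 with compound C alone and by 1.10, 1.06 and 1.43 in 2DG with the compounds.

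Of 6 genes of ubiquitin and its activating enzymes, 3 were measured, and UBB, a polyubiquitin gene, was 2-fold lower in 2DG with compound C (−1.05), none being past 2-fold in 2DG or with the other compounds. Of 12 shuttles and p97 partners, 10 were measured. SQSTM1, the receptor p62, was the 1 gene 2-fold higher in 2DG (1.47), and with each compound in 2DG 3 genes of the list were 2-fold lower. SQSTM1 was among them each time, at −1.67, −2.02 and −1.41, and so was FAF2, an adaptor of p97 at the ER, at −2.57, −1.42 and −2.37. The remaining gene was UBQLN2, a ubiquitin shuttle, with compound C (−2.12, against 0.38 and 0.07 with versipelostatin and phenformin). With versipelostatin and phenformin it was VCP, which encodes p97 itself (−1.28 and −1.09, against −0.10 with compound C), named for this count after its values were seen.

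NFE2L1, the transcription factor that raises proteasome genes when proteasome activity is short, gave log2 signals of 8.40 in control, 9.41 with compound C, 9.66 under versipelostatin and 9.03 under phenformin, and then 8.95 in 2DG alone, 6.35 in 2DG plus compound C, 7.81 in 2DG plus versipelostatin and 7.95 in 2DG plus phenformin. Versipelostatin alone was its highest array and 2DG with compound C its lowest. The differences were 0.55 in 2DG and −2.60, −1.14 and −1.00 when compound C, versipelostatin or phenformin was added. These differences share the array of 2DG alone, and a relation to the values of the subunits was not tested. The activity of NFE2L1 is set after transcription, which these arrays do not read. Of 7 genes in this list 5 were measured, and all 5 were above control in 2DG (median 0.47), as were 51.6% of all genes (median 0.01). MAFF, a small partner of these factors, was higher than 2DG alone by 1.54, 2.43 and 2.73, and MAFG by 1.29, 0.66 and 0.58.

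**Figure D5:**
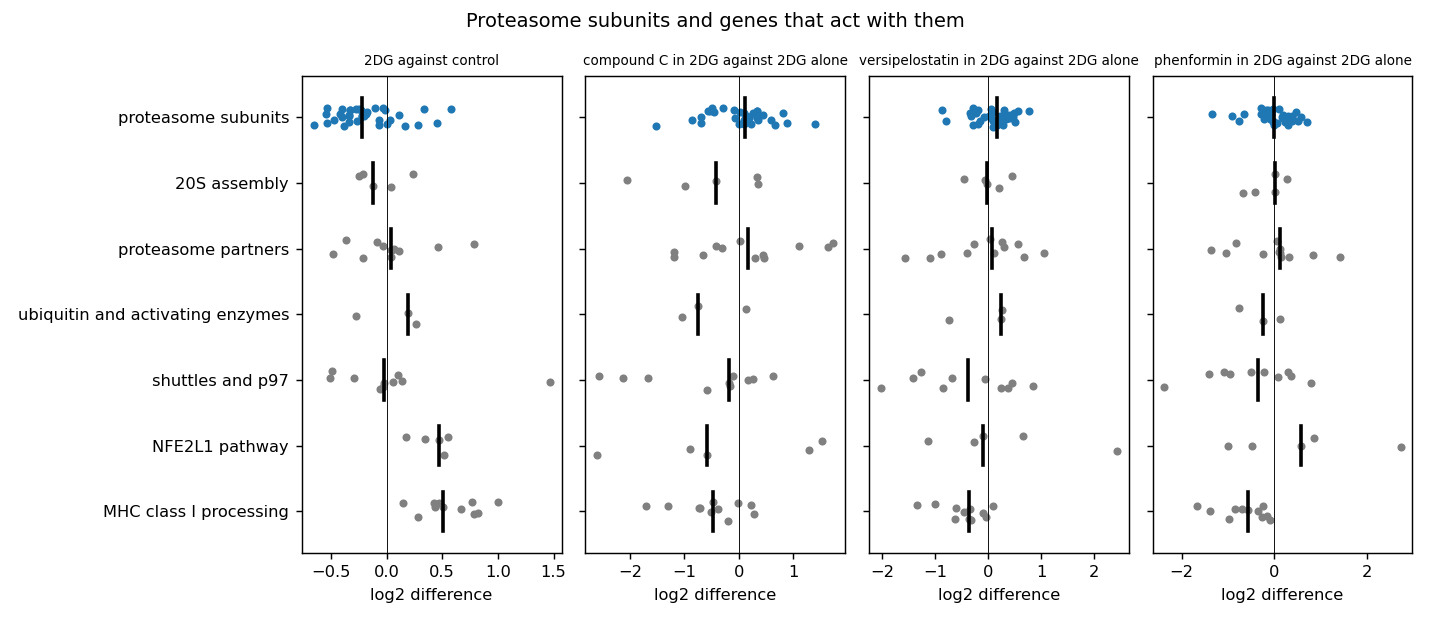
Log2 difference of the 36 proteasome genes (blue) and of the measured genes of 6 lists that act with them (grey; black bar for the median of each list) in 2DG against control and in 2DG with each compound against 2DG alone, 1 array against 1 array. MHC class I processing lies above 0 in 2DG and mostly below it with each compound; scaling on the poly-A controls would lower the panels by 0.35, 0.87, 0.50 and 0.32.

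Finally, the response to 2DG was taken again in the presence of each compound, as 2DG with the compound minus the compound alone. The median of the 36 genes was 0.13 under compound C, 0.07 under versipelostatin and 0.11 under phenformin, against −0.23 without a compound, where all genes gave −0.24, −0.14 and −0.23 against 0.01. The base scaffolds and PSMD4 were above the compound alone under all 3 (medians 0.46, 0.08 and 0.37), and all 6 lid genes were above phenformin alone (median 0.41). The assembly chaperones of the base had the lowest medians under compound C and phenformin, −1.24 and −0.55. Scaling on the poly-A controls would put the medians of the 36 genes under all 3 compounds below 0. These comparisons share arrays with those above, and the part of the poly-A difference in them was not tested.

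The 8 arrays form 4 pairs, with and without 2DG, at the same compound, so the mean difference over the pairs could be tested with limma, with a term for 2DG and one for each compound. This test takes any difference between the compounds in the response to 2DG as error and leaves 3 residual degrees of freedom. None of the 36 genes passed an adjusted p of 0.05 in either direction, and neither did any of the 8429 (0%); at an unadjusted p of 0.05, 1 member was lower and none higher, where 12.6% of all genes were lower and 3.19% higher. That member was PSMD10, with a mean difference of −0.84 ± 0.27 (SE, 4 pairs, limma adjusted p = 0.288), lower in 4 of 4 pairs. PSMA3, PSMA4 and PSMB5 were also lower in all 4 pairs on the probe set that stands for each, and would stay so if scaled on the poly-A controls. A far dimmer probe set of PSMA3 gave −0.21 without a compound. Under compound C, versipelostatin and phenformin it gave 1.70, 2.08 and 1.15, so that the direction of PSMA3 there is not settled. PSMB7, PSMB10 and PSMC4 were higher in all 4 pairs, which that scaling would undo for each of them. As deposited, the members lower and higher in all 4 pairs are 11.1% and 8.33% of the 36, near the 14.7% and 6.96% of all genes.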

How the data were processed

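Gene expression in HT1080 cells was measured on 8 arrays, 1 for each condition, of the Affymetrix type Human Genome U133 Plus 2.0. The deposited values are log2 signals that the authors made with RMA; which software ran it is not given in the sources used here. Groups were taken from the sample descriptions. No step was added before differences were taken. Probe sets were assigned to genes through the annotation of the platform, in which 41097 of 54675 probe sets carry 1 symbol, 1801 several and 11777 none. Of 73 probe sets that name a member, 68 name it alone and 56 of these reached the log2 limit of 6. The 62 control probe sets were left out of counts.

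With 1 array for each condition, a difference between 2 conditions has no replicates and was not tested. The mean effect of 2DG over the 4 compound settings was tested with limma 3.58.1 in R 4.3.3, with arrays paired by compound and Benjamini-Hochberg adjustment over all expressed genes. Genes at least 2-fold apart were counted, beside all 8429 expressed genes. Values on every array are given for the active-site subunits, PSMD14, the activators and, in each of the 7 comparisons, the 3 members with the largest difference either way; of the other lists, up to 3 genes with the largest difference are named. The members, lists and tests were chosen with earlier results of these data known. On simulated data with little noise and changes set far past the 2-fold limit, the calculation recovered 200 of 200 changed genes. That checks the calculation and not its power in these data. Alternatives were a fold of 1.5, limits of 5 and 7 and none, centring, quantile normalization, scaling on the poly-A controls, probe sets without a cross-matching suffix, and the median over probe sets. Promoter windows came from RefSeq (GRCh38.p14). Scripts ran on Python 3.11.15 with pandas 2.3.3, numpy 2.4.6, matplotlib 3.10.9 and scipy 1.17.1.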

Additional observations from a re-analysis of the deposited data

Results flagged for a closer look

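PSME3, the nuclear activator subunit, had differences of opposite sign with phenformin in the 2 media, −0.61 from control in normal medium and 0.71 from 2DG alone in 2DG. Each value compares 1 array with 1 array, and the difference between the media was not tested.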

How the results depend on the processing

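At 1.5-fold in place of 2-fold, 1 member was lower in 2DG, 1 was higher and 4 lower with compound C, 1 lower with versipelostatin and 3 lower with phenformin, and in 2DG 5 were higher and 4 lower with compound C, 1 higher and 2 lower with versipelostatin, and 1 higher and 4 lower with phenformin. Scaled on the poly-A controls, 1 member was 2-fold lower in 2DG (median −0.58) and 2 with phenformin (median −0.49). In 2DG, 0 were then higher and 9 lower with compound C (median −0.75), 2 lower with versipelostatin (median −0.33) and 3 lower with phenformin (median −0.33). With probe sets free of the suffixes _s, _x and _a, which left 23 members, 3 were lower in 2DG, 3 with versipelostatin and 2 with phenformin, and in 2DG 2 were higher with compound C, 3 higher with versipelostatin, and 1 higher and 0 lower with phenformin. With the median over probe sets, 1 was lower in 2DG, and within 2DG 2 were lower with compound C, 1 was higher with versipelostatin, and the median with phenformin was 0.08. Centring gave 3 members higher with compound C in 2DG, and medians of 0.33, 0.39 and 0.27 in 2DG with compound C, versipelostatin and phenformin. Expression limits of 5, 7 and none, and quantile normalization, left all 21 counts and medians within 1.5 times or on the same side. Quantile normalization still narrowed the distance of the member medians from those of all genes within 2DG. Shares of all genes past 2-fold or 1.5-fold were counted for the deposited values only, so the counts under the other settings have no share beside them. Where a value moved, the cause was not tested. The paired limma fit of 2DG over the 4 compound settings was added after the data had been seen. Its median over the members was 0.04, 0.20 after centring and −0.62 scaled on the poly-A controls, and between 0.00 and 0.14 when each pair was left out in turn. It called 0 members under each of these settings and under quantile normalization; of all genes it called 52 higher and 312 lower without the pair that had no compound. A difference of 1 array from 1 array has no replicate check.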
